A study of Mus musculus with 11 samples.

Results

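Zbtb16 and Angptl4, 2 of the 178 genes in the deposited table, were followed across 11 RNA libraries of mouse gingival epithelium. They were picked by name, as genes known to be induced by glucocorticoids, and with their normalised and batch-corrected values in the 3 groups and their spread among naive libraries already known. Those values are therefore given as a description, without a p-value for either gene. The mice were male B6 animals. Naive mice carried no ligature (4 libraries). Mice of the ligature group (3 libraries) had silk tied around the second molars of the upper jaw on both sides, which provokes periodontitis, and those of the removal group (4 libraries) had that silk taken away on day 3. The labels state neither the day of tissue collection nor the age of the animals, and they do not say whether each library came from a separate animal. Epithelium was lifted off the gingiva after Dispase digestion, and polyA RNA was sequenced.

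Glucocorticoids act through the glucocorticoid receptor, a hormone-activated transcription factor that binds response elements in DNA and can raise or lower transcription. Zbtb16 (also called PLZF) encodes a transcriptional repressor with a BTB domain and zinc fingers, which is strongly induced by glucocorticoids in many tissues and also marks innate-like T cells and some progenitor cells. Angptl4 encodes a secreted protein that inhibits lipoprotein lipase, the enzyme that releases fatty acids from circulating triglycerides. It is induced by fasting, by PPAR receptors, by hypoxia and by glucocorticoids.

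The table is a selected one. At an adjusted p under 0.05 in edgeR, 85.2% of its 176 tested genes were called for ligature against naive, 37.5% for removal against naive and 19.9% for removal against ligature, so a difference in any of its genes is what its selection favours. The table's counts added up to 282274 in the smallest library and 503570 in the largest; this is a part of each library, and the full depth is unknown. Both genes passed the filter on low counts. Values below are normalised read counts, that is, counts divided by 1 size factor per library. They are comparable between libraries for 1 gene, not between genes, since they are not scaled by transcript length. The table also holds batch-corrected values. These divide the libraries into 2 sets, described under the correction below: set A (naive 1 and 2, ligature 1, removal 2, 3 and 4) and set B (naive 3 and 4, ligature 2 and 3, removal 1).

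Zbtb16 (ENSMUSG00000066687) was highest in naive epithelium. Its normalised counts in the naive libraries 1 to 4 were 135, 82.3, 499 and 169, from 128, 85, 378 and 192 reads. In the ligature libraries 1 to 3 they were 47.7, 56.4 and 98.6, from 56, 58 and 106 reads. Naive 3 stood far above the other naive libraries, at 3.88 times their mean, and ligature 3 lay above naive 2, so these groups overlapped. The removal libraries 1 to 4 had 35.7, 38.1, 54.5 and 56.8, from 32, 37, 50 and 69 reads. All removal libraries lay below all naive libraries, and they overlapped the ligature libraries. Of the tested genes, 27.8% had removal libraries wholly below naive ones, and Zbtb16 was chosen with these values in view, so nothing is read from that separation.

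Angptl4 (ENSMUSG00000002289) was likewise highest in naive epithelium, but its libraries fell into a high and a low pair there. Its normalised counts in the naive libraries 1 to 4 were 59.1, 64.9, 173 and 170, from 56, 67, 131 and 193 reads. Ligature libraries 1 to 3 had 18.7, 66.2 and 53.0, from 22, 68 and 57 reads. The ligature 2 value exceeded both low naive values, so the groups overlapped. The removal libraries 1 to 4 had 89.3, 20.6, 32.7 and 31.3, from 80, 20, 30 and 38 reads. Removal 1 was the high one and overlapped the naive range; the other removal libraries lay below every naive library.

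**Figure D1:**
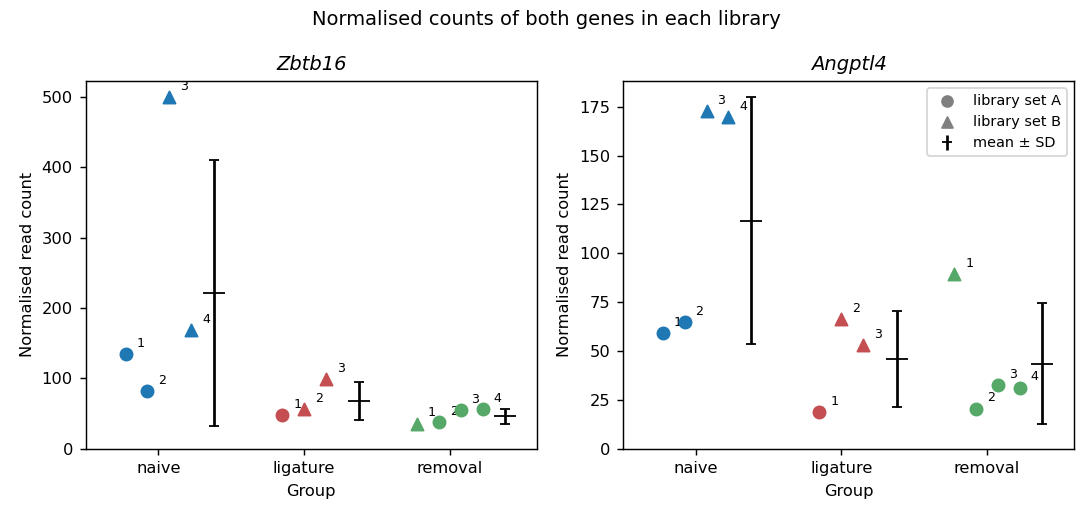
Normalised read counts (vertical axis, linear from 0) of Zbtb16 and Angptl4 in the naive, ligature and removal libraries; numbers are replicates, circles set A, triangles set B, and bars mean ± SD. Zbtb16 has 1 high naive library (499), while in Angptl4 every triangle lies above every circle of its own group.

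As group means, Zbtb16 stood at 221 ± 189 normalised counts in naive (SD, n = 4), 67.6 ± 27.2 with the ligature (n = 3) and 46.3 ± 10.9 after removal (n = 4). The order was naive, ligature, removal, and the difference between the last 2 groups was smaller than the SD of the ligature libraries. Without naive 3 the naive mean was 129 ± 43.5 (n = 3), and the ligature and removal means were 52.5% and 36.0% of it. Angptl4 stood at 117 ± 63.2 in naive, 46.0 ± 24.5 with the ligature and 43.5 ± 31.0 after removal. Its ligature and removal means differed by far less than either SD.

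The deposited batch-corrected values bear on both genes, and more on Angptl4. Within each of the library sets A and B the corrected values were a linear function of the normalised counts. The labels name no batch, and what the sets stand for is not given in the sources used here. In Angptl4 the set B libraries were the higher ones in all 3 groups. The log2 difference of set B over set A, on log2(normalised count + 1), was 1.45 among naive, 1.61 among ligature and 1.66 among removal libraries. The mean of these, 1.57, ranked 3 by size among the 176 tested genes, whose median size was 0.21. Zbtb16 had no such constant shift: set B exceeded set A by 1.45 among naive and by 0.63 among ligature libraries, and the difference was -0.45 among removal libraries.

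Within each set, Angptl4 was lower in both treated groups, and neither treated group overlapped the naive one. Of all tested genes, 61.4% separated this way within both sets for ligature below naive and 48.3% for removal below naive, and nothing is read from it for genes chosen with their values known. In set A the naive mean was 62.0 (n = 2), the single ligature library had 18.7 and the removal mean was 28.2 (n = 3). These were 30.2% and 45.5% of naive. In set B the naive mean was 171 (n = 2), the ligature mean 59.6 (n = 2) and the single removal library had 89.3, so ligature and removal were at 34.8% and 52.2% of naive. Removal was at 150% of ligature in both sets. Zbtb16 differed more between the sets. In set A naive averaged 109, ligature 47.7 and removal 49.8, and both treated groups (43.9% and 45.8% of naive) lay below both naive libraries. In set B naive averaged 334, ligature 77.5 and removal 35.7, or 23.2% and 10.7% of naive, and this naive mean rested on naive 3.

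On the batch-corrected scale Angptl4 had 89.7, 96.5, 128 and 125 in naive libraries 1 to 4, with 42.4, 43.8 and 33.5 in ligature libraries and 62.0, 44.6, 58.8 and 57.2 in removal libraries. The 3 groups did not overlap, with ligature lowest, removal between and naive highest. The group means were 110 ± 19.5, 39.9 ± 5.61 and 55.6 ± 7.63. Corrected values of ligature lay wholly below naive in 55.7% of tested genes, removal wholly below naive in 40.3%, and removal wholly above ligature in 28.4%, and again the choice of the gene used these values. For Zbtb16 the corrected naive libraries had 190, 125, 379 and 123, the ligature libraries 82.4, 35.8 and 68.5 and the removal libraries 19.7, 70.6, 90.8 and 93.6. Correction narrowed the naive SD to 121 and widened the removal SD from 10.9 to 34.2, with removal 1 moving from 35.7 to 19.7 while the other removal libraries moved up. On this scale both treated groups lay below all naive libraries, which for the ligature group was not so on normalised counts, and the removal mean (68.7) was then above the ligature mean (62.2), within their spread.

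**Figure D2:**
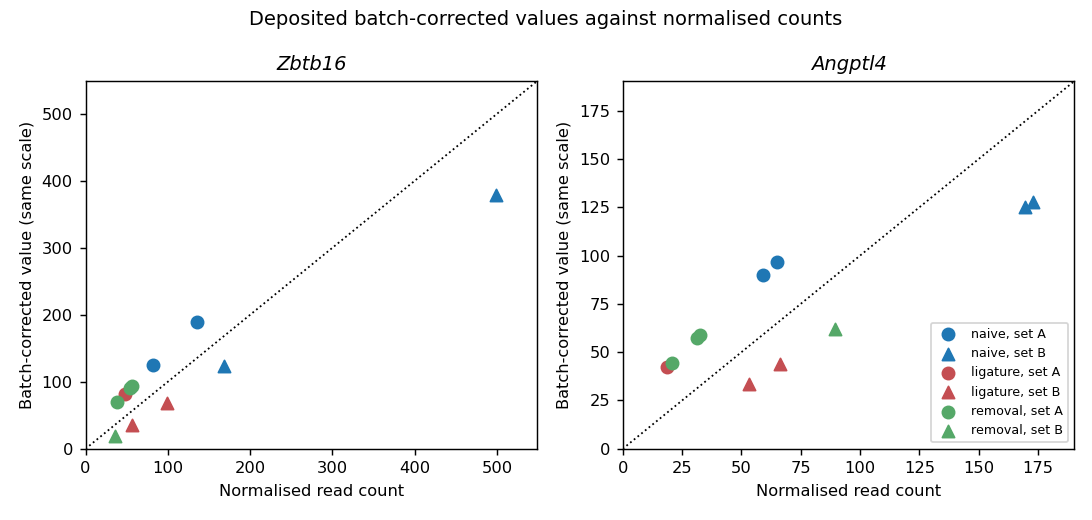
Deposited batch-corrected value (vertical axis) against normalised read count (horizontal axis) for each library, coloured by group, with circles for set A, triangles for set B and a dotted line of equal values. Set A points lie above the line and set B points below it; for Angptl4 the naive libraries close up to between 89.7 and 128.

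The fitted fold changes followed the same lines. For ligature against naive, Zbtb16 had a log2 fold change of -1.70 ± 0.54 (SE of the edgeR fit), with 13 of the 176 tested genes lower, and Angptl4 had -1.34 ± 0.59, with 20 genes lower. The median over all tested genes was -0.38. For removal against naive, Zbtb16 had -2.24 ± 0.50, with only 1 tested gene lower, and Angptl4 had -1.43 ± 0.54, with 6 genes lower, beside a median of -0.17. Both comparisons use the same naive libraries, and naive 3 weighs on each: without it the Zbtb16 values were -0.93 ± 0.36 and -1.47 ± 0.33. TMM factors over the table move the median of all genes to -0.02 for ligature and 0.03 for removal against naive. They gave -1.39 and -2.10 for Zbtb16 and -0.98 and -1.21 for Angptl4. Such factors assume that most genes in the table do not change. This selected table, with 85.2% of tested genes called for ligature against naive, need not meet that. A call lost or gained with TMM below shows that it depends on scaling, and no more.

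Between removal and ligature the 2 genes gave no firm order. The log2 fold change was -0.54 ± 0.53 for Zbtb16 and -0.08 ± 0.59 for Angptl4. With the library set as a batch term these became -0.09 ± 0.52 and 0.55 ± 0.22, so the sign for Angptl4 turned. The groups are unevenly spread over the sets: set B holds 2 of 3 ligature libraries and 1 of 4 removal libraries. The batch term also changed the precision of Angptl4. Its SE for ligature against naive went from 0.59 to 0.20, at a log2 fold change of -1.59, and for removal against naive from 0.54 to 0.19, at -1.05. For Zbtb16 the SE hardly moved (0.54 to 0.47 and 0.50 to 0.47), at -1.73 and -1.81. With the batch term and without naive 3, an alternative chosen after seeing the data, Zbtb16 had -1.04 ± 0.34 for ligature and -1.40 ± 0.31 for removal against naive.

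**Figure D3:**
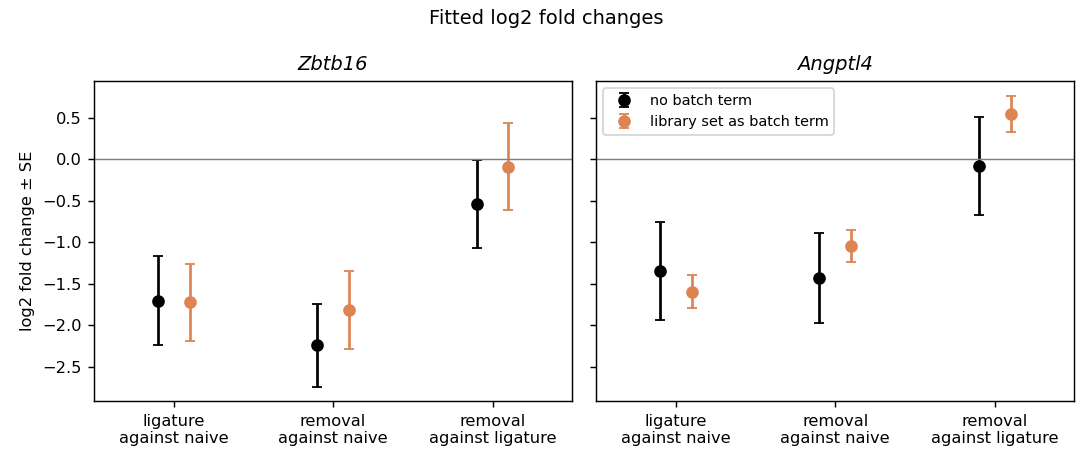
Log2 fold change ± SE (vertical axis) of Zbtb16 and Angptl4 in the 3 comparisons, from the edgeR fit without (black) and with (orange) the library set as a batch term. The error bars of Angptl4 shrink with the batch term, and its removal against ligature value moves from -0.08 to 0.55.

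Both genes were among the most variable of the table in naive libraries. That spread was known when they were chosen, so the ranks only describe them. The SD of log2(normalised count + 1) over the naive libraries was 1.09 for Zbtb16 and 0.84 for Angptl4, ranks 5 and 7 of the 176 tested genes, whose median was 0.18. As a coefficient of variation the spread was 85.2% for Zbtb16 and 54.1% for Angptl4, where counting error alone would give about 7.15% and 9.46%. Among the 27 tested genes with a mean count within 2-fold of that of Zbtb16, its own row included, 1 had a larger naive SD, and among the 23 around Angptl4 there were 3. The 5 named genes of largest naive SD were the matrilin gene Matn4 (2.25), Fam71a (1.32), Bpifa5, a secreted protein gene of the BPI fold family (1.15), Zbtb16 (1.09) and the C-type lectin Clec2e (1.05).

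The spread of the 2 genes had a different form. On batch-corrected values the naive SD of Angptl4 was 0.26, rank 25, and that of Zbtb16 was 0.76, rank 4. Without naive 3 the normalised SD of Zbtb16 was 0.53, while leaving out any naive library kept that of Angptl4 between 0.80 and 0.88. In ligature and removal libraries the SD of Angptl4 stayed as wide, at 0.94 and 0.88 (ranks 5 and 7), and became 0.21 in each with batch-corrected values. Zbtb16 had an SD of 0.54 and 0.34 there (ranks 17 and 34) on normalised counts, below its naive 1.09, but 0.62 and 1.04 (ranks 8 and 3) on batch-corrected values, so the order of its removal and naive SDs turned with the scale.

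**Figure D4:**
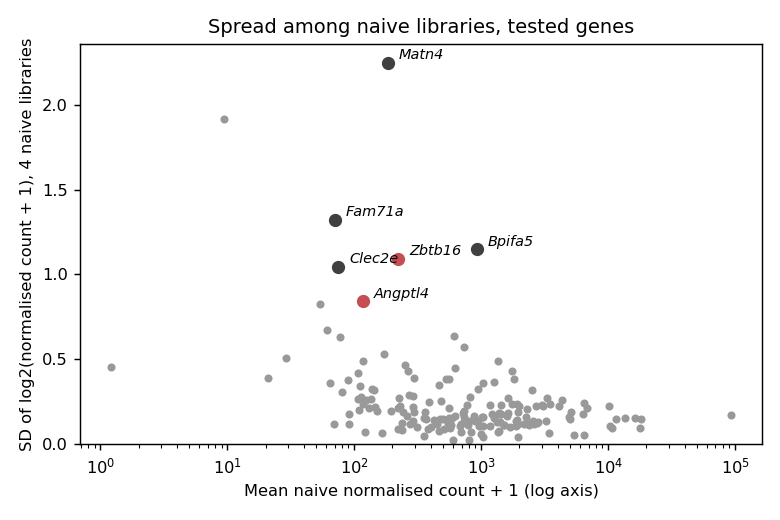
SD of log2(normalised count + 1) over the 4 naive libraries (vertical axis) against the mean naive normalised count plus 1 (horizontal log axis) for the tested genes, with Zbtb16 and Angptl4 in red and the other most variable named genes in dark grey. Zbtb16 (1.09) and Angptl4 (0.84) lie above the bulk of genes, whose median is 0.18.

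Of a list of 36 glucocorticoid-inducible genes, 7 were in the table: the 2 genes described and 5 others. All 5 others fell with the ligature in edgeR (adjusted p under 0.05, with 56.8% of tested genes called lower), with a median log2 fold change of -0.98 against -0.38 over all tested genes. The list was written with earlier results of these data known, so these values only describe its genes. Gadd45g, a growth arrest and stress gene, fell from 688 ± 57.2 normalised counts (n = 4) to 264 ± 38.5 (n = 3), which the edgeR fit put at -1.38 ± 0.17 on the log2 scale (adjusted p = 0.000201). Nfkbia, which encodes the inhibitor that holds NF-kappaB in the cytoplasm, fell by 1.02 on the log2 scale, and Zfp36, whose product promotes decay of inflammatory mRNAs, by 0.98. The small GTPase gene Rhob fell by 0.72. The MAP kinase phosphatase gene Dusp1 fell by 0.54, a call that was lost with TMM (-0.17). After removal 3 of the 5 were lower than in naive (24.4% of tested genes): Gadd45g, Nfkbia and Zfp36, at log2 fold changes of -0.69, -0.59 and -0.48. Dusp1 and Rhob did not pass the test (-0.34 and -0.29), though both did with the batch term or in DESeq2.

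In removal against ligature 4 of these 5 genes, all but Dusp1 (0.20), were higher in edgeR, where 17.0% of tested genes were called higher; Gadd45g rose by 0.70, Zfp36 by 0.49, Nfkbia by 0.43 and Rhob by 0.42. With TMM only Zfp36 passed (0.33), and with median-of-ratios factors or a replicate block none of the 4 did. Leaving out ligature 1, 2 or 3, removal 2 or removal 4 also ended each of these 4 calls. Zbtb16 and Angptl4 stood at -0.54 and -0.08 in that comparison. With the batch term Zbtb16 was at -0.09, while Angptl4, at 0.55, lay among the 4 genes, which had 0.43 (Rhob and Nfkbia), 0.46 (Zfp36) and 0.77 (Gadd45g); the difference of either gene from the 5 was not tested. The naive coefficients of variation of the 5 on normalised counts ran from 8.32% (Gadd45g) to 15.3% (Rhob), against 85.2% for Zbtb16 and 54.1% for Angptl4. On batch-corrected values they ran from 3.18% to 14.4%, with Angptl4 near them at 17.8% and Zbtb16 at 59.1%. The list is not specific to hormone: Dusp1, Zfp36, Nfkbia, Rhob and Gadd45g are also rapid-response genes induced by stress and cytokines. The other 29 genes of the list, Fkbp5, Tsc22d3, Per1, Sgk1 and Klf9 among them, were not in this selected table and are not analysed here.

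**Figure D5:**
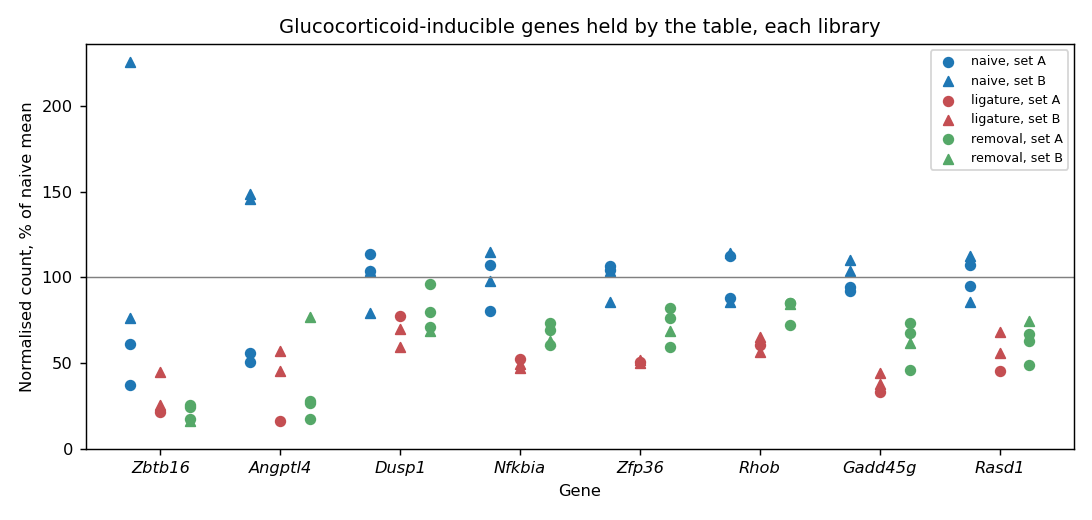
Normalised count in each library as a percentage of the gene's naive mean (vertical axis, linear from 0), by gene, group (colour) and library set (circles A, triangles B), for Zbtb16, Angptl4, the 5 other listed glucocorticoid-inducible genes and Rasd1. Naive libraries scatter widely in Zbtb16 and Angptl4 and closely around 100 in the other genes.

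Rasd1, a small GTPase first described as a dexamethasone-induced gene, was not on that list but was named by its likeness to Angptl4. Its normalised counts in naive libraries were 96.0, 85.3, 76.6 and 101, in ligature libraries 40.9, 61.3 and 50.2, and in removal libraries 67.0, 56.6, 43.6 and 60.1. Neither treated group overlapped the naive one, as in 48.9% of tested genes for ligature below naive and 27.8% for removal below naive. It fell by 0.82 ± 0.24 with the ligature (edgeR adjusted p = 0.00802) and by 0.66 ± 0.22 after removal (edgeR adjusted p = 0.0362). Being named for likeness to Angptl4, which was lower in both groups, favours such a fall, so nothing is read from these calls. With group and set removed, its r with Angptl4 was -0.004. Both calls were lost with TMM, at -0.45 in each, and leaving out naive 1, 2 or 4 or removal 2, 3 or 4 ended the second. On the log2 scale set B differed from set A by -0.04 among its naive libraries, 0.43 among ligature and 0.33 among removal libraries, each less than in Angptl4.

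The fasting side of Angptl4 could be followed only in Angptl4 itself. Of 25 fasting and PPAR target genes and of 14 genes of the lipoprotein lipase pathway, Angptl4 was the 1 in the table. Of 20 hypoxia target genes 3 others were present. Adm, which encodes the vasodilator adrenomedullin, fell with the ligature, from 116 ± 19.3 normalised counts to 57.6 ± 4.95. Its log2 value was -1.01 ± 0.22 there, at an edgeR adjusted p of 0.00278, and it fell by 0.61 after removal. In edgeR 56.8% of tested genes were called lower with the ligature and 24.4% after removal. No call of a list gene in this paragraph is therefore read as a result about its pathway. The glycolytic enzyme gene Pfkp and the vascular growth factor gene Vegfa did not pass the test with the ligature (0.31 and -0.07), and Vegfa fell by 0.32 after removal. The calls of Adm and Vegfa after removal were made at edgeR adjusted p = 0.0360 and 0.0420; both were lost with TMM. Leaving out any naive or removal library ended the call of Vegfa, and leaving out naive 1, 3 or 4 or removal 1, 3 or 4 ended that of Adm. With TMM Pfkp and Vegfa were instead called higher with the ligature, at 0.67 and 0.29; Pfkp was also called higher there with the batch term (0.36) and without naive 2 or ligature 2. Within sets, removal was at 148% of ligature for Adm in set A and at 120% in set B, while for Vegfa it was at 72.0% and 86.7% and for Pfkp at 71.6% and 93.5%. Angptl4 was at 150% in both. All these percentages rest on 1 ligature library in set A and on 1 removal library in set B. Of 21 insulin and FOXO signalling genes only Trib1, a pseudokinase gene, was in the table. It fell by 0.61 with the ligature, a call lost with TMM (-0.26), and did not pass after removal (-0.16). Of the BTB zinc finger factors and Zbtb16 partners (17 genes) none but Zbtb16 was held, and none of the lists of clock genes and of steroid receptors with glucocorticoid metabolism.

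Likeness of pattern was ranked by Spearman's rho of normalised counts over the 11 libraries, among 175 other tested genes. It describes these libraries; the groups and sets shape it, and no test was made. Zbtb16 and Angptl4 had a rho of 0.53 with each other, which placed Angptl4 at rank 37 for Zbtb16 and Zbtb16 at rank 15 for Angptl4. The rho was 0.81 without removal 1, 0.37 without naive 3 or naive 4, and 0.72 on batch-corrected values. Pearson's r of their log2 values was 0.72. It was 0.44 after subtracting group means and -0.09 after removing both group and set.

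Among the genes most like Zbtb16 were Ccn1, a matricellular protein gene (rho 0.69), the prostaglandin synthase gene Ptgs2 (0.69), Fam71a (0.66) and Tmem95 (0.66). All 4 fell in both comparisons with naive in edgeR, where 56.8% (ligature) and 24.4% (removal) of tested genes were called lower. They were named by likeness to a gene lower in both treated groups, so a fall is what that choice favours. Nothing is read from these calls. With TMM Ccn1 lost both calls; after removal its call was also lost without naive 3 or 4, ligature 3 or removal 1, 2 or 3. The least like were Atp2b4, Map3k2 and Ptpn4 (rho -0.77, -0.78 and -0.79). All 3 rose after removal, where 23 of the 176 tested genes were called higher, and their choice as least like favours a rise. Leaving out any naive library, ligature 3 or removal 1, 2 or 3 ended the call of Atp2b4. The tyrosine phosphatase gene Ptpn4 was at 380 ± 24.8 in naive and 580 ± 82.8 after removal.

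The genes most like Angptl4 were Adamts1, a matrix-cleaving protease gene (rho 0.95), Matn4 (0.83), the cytokine signalling inhibitor Socs3 (0.79), Ccn1 (0.76) and Rasd1 (0.75). Adamts1 ranged from 488 to 1124 among naive, 243 to 514 among ligature and 274 to 725 among removal libraries, with set B above set A by 0.93 on the log2 scale in naive. Matn4 ranked first after subtracting group means (r = 0.96), and with the set removed as well its r was -0.13, against 0.42 for Adamts1. Matn4 was not called in either comparison with naive, though it was called lower in both with the batch term. Without removal 1 it was called lower after removal (-4.25). That fit compares removal libraries of set A alone with naive libraries of both sets. In naive libraries set B exceeded set A in Matn4 by 3.84 on the log2 scale, so nothing is read from that call. Adamts1 fell with the ligature (-0.96, edgeR adjusted p = 0.0381), where 56.8% of tested genes were called lower. TMM factors ended this result, as did leaving out naive 3, naive 4, ligature 1 or ligature 3. After removal Adamts1 did not pass (-0.75), though it did with the batch term or without removal 1. Adamts1 and Matn4 were named by likeness to Angptl4, which was lower in both treated groups. That choice favours a fall, so nothing is read from the calls of either gene. The least like were Col8a1, Fras1 and Krt10 (rho -0.77, -0.88 and -0.90).

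Krt10, a keratin of differentiating suprabasal cells and the 1 of 12 gingival keratinocyte markers in the table, had 81960 to 109641 normalised counts in naive, 116428 to 187178 in ligature and 88347 to 162606 in removal libraries. It rose by 0.64 ± 0.22 with the ligature (edgeR adjusted p = 0.0182), where 50 of the 176 tested genes were called higher. The call was lost without naive 4 or ligature 1. Krt10 was also named as least like Angptl4, a choice that favours a rise, so nothing is read from this call. Cd68, the 1 of 6 macrophage and dendritic cell markers held, fell with the ligature from 287 ± 54.6 to 180 ± 10.2, a call lost with TMM (-0.31). Of all tested genes, 56.8% were called lower there, so nothing about a cell type is read from Cd68. Of the markers of innate-like lymphocytes, in which Zbtb16 is a defining factor (12 genes), and of adipocytes, which express Angptl4 (7 genes), none was in the table. In bulk epithelium, fewer cells of a type and less RNA per cell cannot be told apart. The part of cell composition in the Zbtb16 and Angptl4 values was not tested.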

How the data were processed

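The deposited table holds 3 values per gene and library. Raw counts are whole numbers, per the file headers. The deposited normalised counts, a signal never below 0, are those counts over a library-wide size factor (0.757 to 1.21). The batch-corrected score deposited by the authors shares that linear scale and goes below 0 in 7 values. Tools listed in the submitters' processing notes, with no role stated, are DESeq2 1.36.0, HTSeq 2.01, TopHat2 2.1.1 and cutadapt 2.10; the build listed is GRCm39. No source used here gives the correction method or the strand setting. Of 993339 rows 178 named a gene.

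Raw counts were fitted with edgeR 4.0.16 (quasi-likelihood F test, R 4.3.3), deposited size factors, 1 mean per group, 11 libraries, the default expression filter and Benjamini-Hochberg adjustment over 176 genes, two-sided. SE is the log2 fold change over the root of F. The script was tested on simulated data. The library sets were the division, of 957 tried, that made corrected values linear in normalised counts within sets (median residual 3.23e-05% of the mean, next 1.01%). The reference at hand was GRCm38, so no coordinates are given.

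Members and lists (8 of pathways, 10 of cell types, 228 genes, 14 in the table) were chosen with earlier results of these data known. Named genes were the 2 members, the 5 most and 3 least like each by Spearman's rho, the 5 of largest naive spread, and list genes in the table, without predicted models, pseudogenes and ribosomal genes. A gene that this rule names is not reported here. P-values measure the spread between libraries, which may be technical. Alternatives were TMM and median-of-ratios factors, DESeq2 1.42.0, no filter, a batch term, a replicate block and each library left out.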

Additional observations from a re-analysis of the deposited data

Results flagged for a closer look

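Among 29 named genes in the naive and removal groups (58 groups of 4 libraries), 5 had a library whose gap to its neighbour as a share of the group's range exceeded Dixon's 95% limit for 4 values, where chance gives about 1 in 20. Normalised counts were 9919 for Zfp36 in naive 3, 1936 for Rhob in removal 3, 1462 for Vegfa in naive 1, 188.7 for Matn4 in removal 1 and 30.15 for Clec2e in removal 1. Naive 3 is also the library of the high Zbtb16 value. Removal 1 is the only removal library of set B and the high one for Angptl4. Zbtb16 in naive 3 (ratio 0.793) and Angptl4 in removal 1 (ratio 0.824) came close to the limit without passing it.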

How the results depend on the processing

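Both genes were lower than naive in both treated groups under every alternative run. Leaving out 1 library gave log2 fold changes of -2.08 to -0.93 (Zbtb16) and -1.70 to -0.97 (Angptl4) for ligature against naive. For removal against naive it gave -2.52 to -1.47 (Zbtb16) and -2.04 to -1.18 (Angptl4). The Zbtb16 extremes nearest 0 were without naive 3, also with the batch term (-1.40 for removal). The -2.04 of Angptl4 was without removal 1, the only removal library of set B. With the batch term and all libraries Angptl4 was at -1.05. For removal against ligature the sign was not stable: Angptl4 had 0.55 with the batch term (0.55 also without naive 3), 0.48 with corrected values and -0.69 to 0.27 with 1 library left out, and Zbtb16 had 0.14 with corrected values and -0.74 to -0.16 with 1 library left out. The naive SD of Angptl4 was 0.26 with corrected values, 0.77 with pseudocount 10 and 0.90 with TMM; that of Zbtb16 was 0.53 to 1.34 with 1 naive library left out.

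Of all genes, 126 were called for removal against naive with the batch term (125 also without naive 3) in place of 66, and 38 to 78 with 1 library left out. For removal against ligature 35 became 8 with the replicate block and 0 to 49 with 1 library left out; where edgeR called 0 (without ligature 1, ligature 2, removal 2 or removal 4), 49 to 72 genes had an unadjusted p under 0.05 and DESeq2 called 36 to 50. The share of higher against lower calls turned on scaling: 50 and 100 for ligature against naive became 64 and 50 with TMM, 23 and 43 for removal became 50 and 22, and 30 and 5 for removal against ligature became 17 and 12. With median-of-ratios factors these 3 comparisons gave 64 and 50, 40 and 28, and 16 and 30. Whether same-numbered libraries pair could not be told. The correlation of their deviations exceeded 0.1 in 2 of 10 pairs, and 3 libraries were most like one of their own number. These deviations keep the set difference, and most same-numbered pairs join set A to set B, all of them with a correlation below 0. Within a set it was 0.53 (naive 1, ligature 1), 0.40 (naive 2, removal 2) and 0.099 (naive 3, ligature 3). The cause of these changes was not tested.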
